A study of Rattus norvegicus with 2 samples.

Results

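The somatostatin, cortistatin and cholecystokinin systems are represented here by 10 genes: the peptide precursors Sst, Cort and Cck, the 5 somatostatin receptor genes Sstr1 to Sstr5, and the cholecystokinin receptor genes Cckar and Cckbr. They were taken by gene symbol from the probe annotation, which gave 12 of the 30367 non-control probes of a rat expression array. All 10 genes carried the scanner software's flag for a signal well above background on both arrays, Cckar and Sstr5 at dim signals, among 14175 RefSeq genes measured in the same way of 17573 with a probe. RNA came from the paraventricular nucleus of male Sprague Dawley rats aged 12 weeks. In the control group the mother had received vehicle, and in the dexamethasone group she had received dexamethasone (a synthetic glucocorticoid) at 200 µg/kg during the third trimester. Each group had 1 array. The file headers place both on 1 slide, each at a position of its own, which cannot be told apart from the treatment. There was therefore no replicate error and no test, and the labels do not say whether an array held RNA of 1 animal or of several.

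The paraventricular nucleus is a hypothalamic centre of hormone release, stress responses and sympathetic outflow. Somatostatin is a cyclic peptide that inhibits growth hormone release from the pituitary and the release of many transmitters; it is made by periventricular hypothalamic neurons and by inhibitory interneurons of the cortex and hippocampus. Cortistatin is a close relative, named for its expression in cortical interneurons, and binds the same receptors, which couple to inhibitory G proteins. Cholecystokinin is among the most abundant peptides of the brain and acts through the A receptor, known from satiety signalling, and the B receptor, the main form in the forebrain. In a tissue sample, a larger share of cells that express a gene and more RNA per cell cannot be told apart.

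Promoter sequence was examined because Sst and Cort both passed a 2-fold difference toward the dexamethasone array. RefSeq windows of build GRCr8, from 250 bases before to 50 after the annotated start, were at hand for 8 of the 10 genes (not Cck or Cckar). They were searched on both strands for 4 motifs. These were the cyclic AMP response element TGACGTCA, the AGAACA hexamer of glucocorticoid response elements, the NeuroD-type E-box CAGATG and the TATA box TATAAA. The stretches printed here hold the matches of these ligand genes and, chosen after the matches were seen, of the receptors Sstr2 and Sstr3. Capitals mark the match. Sst lies on the plus strand at chr11:90461506-90461574, Sstr2 on the plus strand at chr10:99163249-99163317, Sstr3 on the minus strand at chr7:111980367-111980435 and Cort on the minus strand at chr5:164845328-164845357.
Sst: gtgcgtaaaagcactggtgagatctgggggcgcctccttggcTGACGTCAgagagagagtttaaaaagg
Sstr2: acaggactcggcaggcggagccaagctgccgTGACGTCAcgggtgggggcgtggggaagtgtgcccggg
Sstr3: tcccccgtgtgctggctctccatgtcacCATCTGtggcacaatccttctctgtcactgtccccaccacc
Cort: caagtgcgcacgTGTTCTaaaataagggca

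The cyclic AMP response element is the textbook control element of the Sst promoter, bound by the transcription factor CREB. It was found at positions 3 to 10 from the annotated start of Sst and at positions -73 to -66 of Sstr2, and in 612 of 33469 promoters in all (1.83%). The Sst match thus lay after the annotated start, and whether transcription begins at that start was not examined. Between the arrays, Sst and Sstr2 differed 2.66-fold and 1.17-fold, and any part of this element in these differences was not tested. The Cort window held no such element; it held the reverse complement of AGAACA at positions -221 to -216, a hexamer present in 20.7% of promoters. The start used for Cort lies 672 bases inside the outer bound of the annotated gene, and that used for Sstr1 lies 246 bases inside. Read along the gene, Sstr3 held the reverse complement of CAGATG at positions -157 to -152, and so did Sstr1 at positions 27 to 32 (16.6% of promoters held the motif on a strand). TATAAA was in none of the 8 windows, against 14.2% of all, and Sstr4, Sstr5 and Cckbr held none of the 4 motifs. These matches describe letters, not sites of binding.

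The spots gave a background-subtracted intensity, called the signal below. Differences between the arrays are dexamethasone minus control on a log2 scale, after the 75th percentile of each array was subtracted (a signal of 1402 for the control and 1477 for dexamethasone). Probes well above background made up 79.5% (control) and 78.2% (dexamethasone), and no spot was saturated. Each of the 12 probes was spotted once per array. The error given after a signal is the scanner software's own estimate for that spot. A second yardstick is the SD of the between-array difference over repeated spots of other probes, at a mean signal within 1 log2 unit; both describe the measurement on 1 array pair and not the spread between animals. The 12 probes, each of 60 bases, shared runs of at most 9 bases with one another.

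The ligand genes Sst and Cort were higher in the dexamethasone array, and Cck was slightly lower. Cort gave a signal of 57.8 ± 6.02 in the control against 1046 ± 105 after dexamethasone, at an rn4 probe position of chr5:166199061-166199120. The dexamethasone array was thus far above the control for this peptide of cortical interneurons. After scaling, the difference was 4.10 on the log2 scale, or 17.2-fold. Repeated spots at a like mean signal of both arrays had a median SD of 0.06 (203 probes), at a level above the dimmer control reading. Of the 14175 measured genes, 16 had a larger positive difference, and none was as far below 0. Among 1330 other genes within 0.5 log2 units of its mean level, 3 differed at least as much. Background handling set the size: with normexp background correction the Cort difference was 2.96 and without background correction 3.04, both still past 2-fold.

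Sst had a signal of 7602 ± 760.2 in the control against 21299.9 ± 2129.99 after dexamethasone (rn4 chr11:79126157-79126216). It was 2.66-fold higher after scaling, a log2 difference of 1.41, beside a repeated-spot SD of 0.03 at this signal (190 probes). Large differences were uncommon among genes as bright as Sst. Of 755 other genes within 0.5 log2 units of its mean level, 6 (0.795%) differed at least as much in either direction. Across all measured genes the share was 2.73%. Cortistatin and somatostatin transcripts thus both stood higher in the dexamethasone array.

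Cck was by contrast a bright spot on both arrays, with a signal of 190870 ± 19087 in the control against 166860 ± 16686 after dexamethasone (rn4 chr8:126492642-126492700). Both readings came from the low-gain scan that the software scales up for very bright spots, per the flag in the files. The difference of -0.27 corresponds to 1.21-fold lower in the dexamethasone array. The software errors of these readings overlap, while the repeated-spot SD at this signal was 0.03 (8 probes). Few genes lie at this brightness: of 52 others within 0.5 log2 units, 4 (7.69%) differed as much or more. The 3 ligand genes therefore spread from slightly below equality to the extreme upper end of the array.

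**Figure D1:**
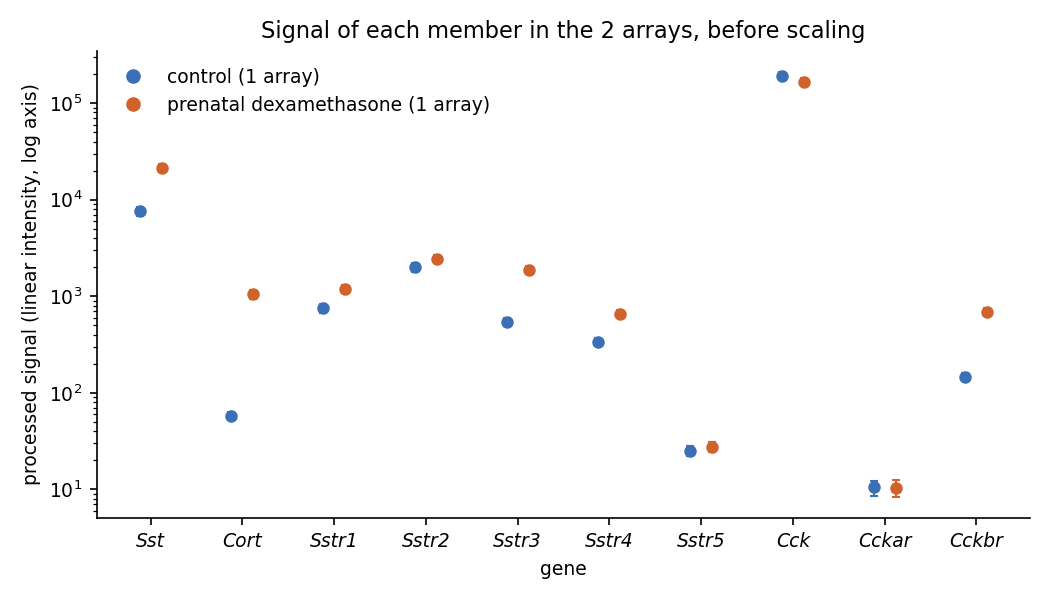
Signal of the probe used for each of the 10 genes in the control array (blue) and the dexamethasone array (orange), as processed intensity before scaling on a log axis; bars are the scanner software's error for the single spot. Cort, Sst, Sstr3 and Cckbr are well separated between the arrays. By contrast, Cck (190870 and 166860), Sstr5 (24.9 and 27.5) and Cckar (10.5 and 10.5) overlap within the software's error.

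The somatostatin receptor genes differed to unequal degrees, from Sstr3, past 2-fold, to Sstr5, without a readable direction. Sstr3, a receptor found in the primary cilia of neurons, had a signal of 541 ± 54.1 in the control against 1890.3 ± 189 after dexamethasone (rn4 chr7:116495844-116495903). The scaled difference was 1.73, or 3.32-fold, with a repeated-spot SD of 0.04 at that signal. Among 1658 other genes of like level, 21 (1.27%) were at least as far from equality. Sstr4, an inhibitory receptor of hippocampus and cortex, read 338 ± 33.8 and 661 ± 66.1 (rn4 chr3:137152182-137152241). Its difference of 0.89, or 1.86-fold, was the one nearest to the 2-fold line from below. Of 1576 other genes of like level, 6.73% were as far from equality as Sstr4.

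Sstr1 and Sstr2 are the subtypes best known from hypothalamic control of growth hormone. Sstr1 read 754 ± 75.4 in the control against 1193 ± 119 after dexamethasone (rn4 chr6:78806638-78806697), a difference of 0.59. Of 1682 other genes of like level, 13.1% differed at least as much. Sstr2 was measured by 2 probes. The brighter read 2001 ± 200.1 and 2458 ± 246 (rn4 chr10:103254378-103254437), a difference of 0.22. The dimmer read 89.3 ± 9.03 and 104 ± 10.5 (rn4 chr10:103253642-103253701), a difference of 0.14. The probes of Sstr2 gave like answers, close to equality, and 46.6% of all measured genes differed at least as much as its brighter probe.

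Sstr5, the subtype most prominent in pituitary and pancreas, was dim: 24.9 ± 2.94 against 27.5 ± 3.29 (rn4 chr10:14740997-14741056). Its scaled difference was 0.07, below the repeated-spot SD of 0.20 at that signal, and it turned to -0.15 with normexp correction and -0.04 without background correction. No direction can be read for Sstr5. With the main processing, the differences of the 5 somatostatin receptor genes ran from 0.07 to 1.73 with a median of 0.59, and 1 of the 5 passed 2-fold. All 5 values lay above 0, that of Sstr5 by less than its repeated-spot SD. Of all 14175 measured genes, 7275 lay above 0.

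The cholecystokinin receptors parted. Cckbr, which encodes the B receptor, had a signal of 147 ± 14.7 in the control against 692 ± 69.2 after dexamethasone on its brighter probe (rn4 chr1:163166890-163166949). That is 4.48-fold higher, a difference of 2.16 with a repeated-spot SD of 0.06 at like signal. Its second probe, at rn4 chr1:163165347-163165406, was not well above background in the control array (5.04 ± 1.62) but was so after dexamethasone (24.9 ± 3.26). For that probe the fold is a bound, at least 4.03-fold higher, taken against the higher of the probe's own control value and the lowest control value well above background. Both Cckbr probes therefore placed the dexamethasone array above the control.

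Of 1398 other genes at the level of Cckbr, 9 (0.644%) were at least as far from equality. Cckar, the A receptor gene, was close to background, at 10.5 ± 1.84 in the control against 10.5 ± 2.03 after dexamethasone (rn4 chr14:62057799-62057858). Before background subtraction the Cckar spot read 69.5 and 69.8, over a local background of 63 and 60. Its difference of -0.08 lay below the repeated-spot SD of 0.30 at that signal, so a difference in Cckar was not detectable at this brightness.

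In all, 4 of the 10 genes (Cort, Cckbr, Sstr3 and Sst) lay at least 2-fold above the control after dexamethasone, against 478 of 14175 measured genes (3.37%). None was at least 2-fold lower, against 338 genes (2.38%). The 2-fold line is a rule of size and not a test. The median difference was 0.74 over the 10 genes and 0.01 over all measured genes, whose differences had an SD of 0.54. By role, 2 of 3 ligand genes and 2 of 7 receptor genes passed the line, with medians of 1.41 and 0.59. Of the genes past 2-fold in either direction across the array 58.6% were higher, and 68.6% with normexp correction, when 284 were higher and 130 lower.

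**Figure D2:**
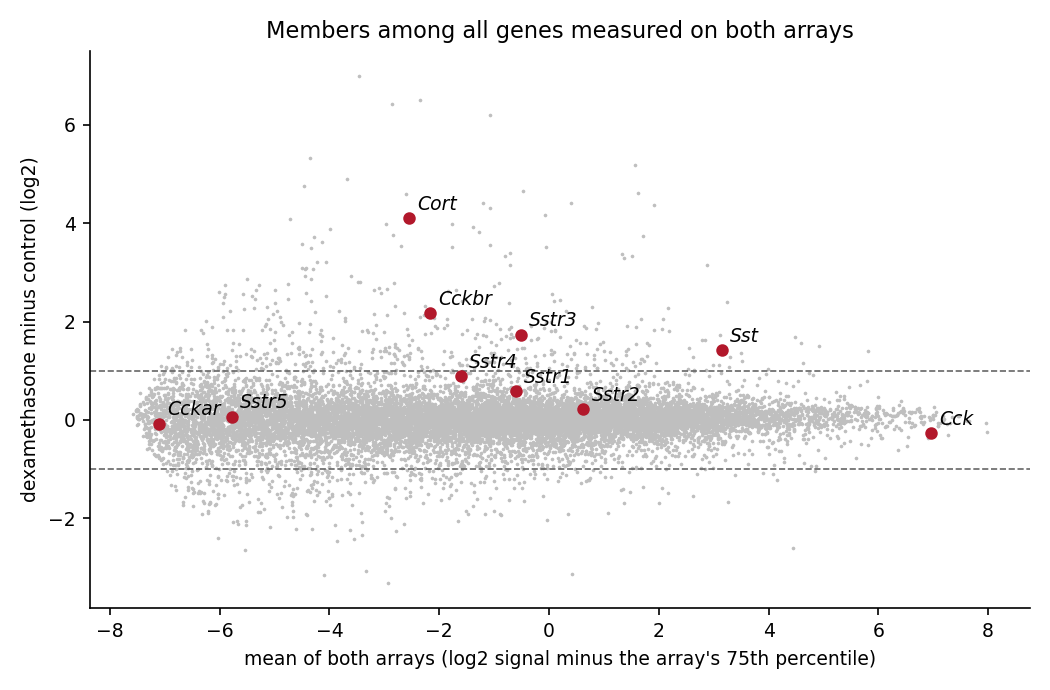
Difference between the arrays (dexamethasone minus control, log2) against the mean scaled level of both arrays for 14175 genes (grey) and the 10 genes named here (red); dashed lines mark 2-fold. Cort (4.10), Cckbr (2.16), Sstr3 (1.73) and Sst (1.41) lie above the upper line, and the other 6 genes lie between the lines.

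The same 4 genes passed 2-fold under each of 9 other ways of processing the arrays. Over these, the Sst difference ranged from 1.35 to 1.43, that of Sstr3 from 1.54 to 1.75, that of Cckbr from 1.82 to 2.18 and that of Cort from 2.96 to 4.12. Sstr4 stayed between 0.82 and 0.91, short of 2-fold throughout. Sstr1 lay between 0.56 and 0.60, Sstr2 between 0.18 and 0.24, and Cckar between -0.08 and -0.04. Cck was below 0 in every one, from -0.38 with cyclic loess to -0.24 in the authors' value table. Of the 4 genes past 2-fold, the background treatments moved Cort most and Sst least.

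**Figure D3:**
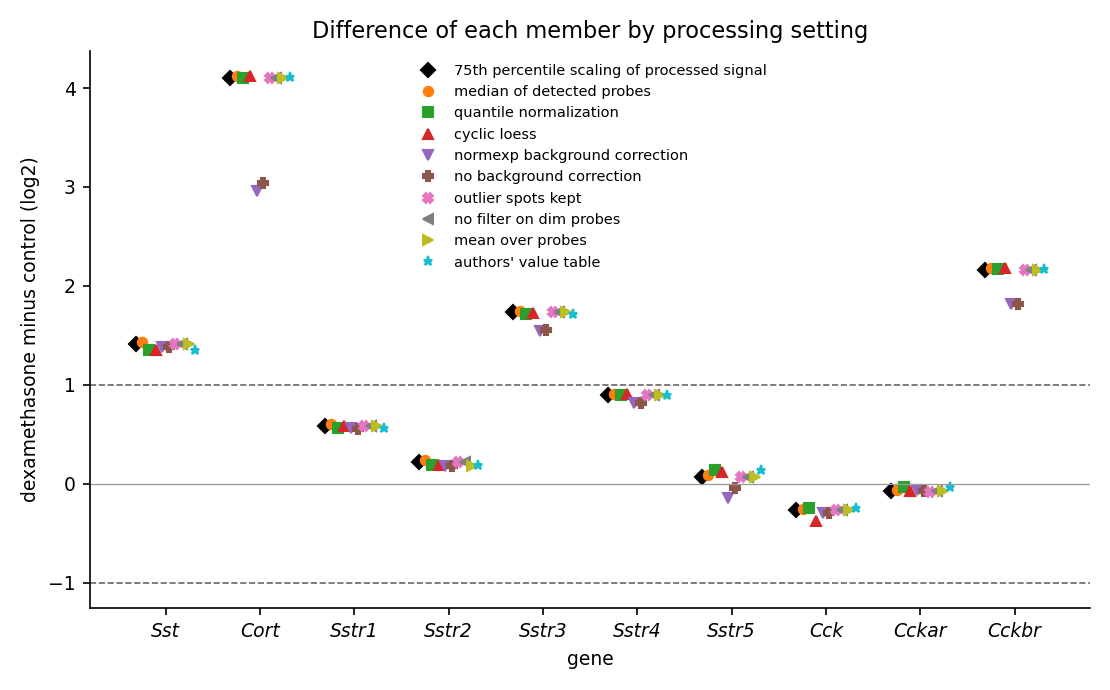
Difference between the arrays (dexamethasone minus control, log2) for each of the 10 genes under the main processing (black diamonds) and 9 alternatives (coloured symbols); dashed lines mark 2-fold. The symbols for Sst, Cort, Sstr3 and Cckbr all lie above the upper line, with Cort at 2.96 and 3.04 under the pair of alternative background treatments, and those for Sstr5 straddle 0.

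Genes that make and break down these peptides differed little. The list held the prohormone convertases Pcsk1 and Pcsk2, carboxypeptidase E (Cpe), the amidating enzyme Pam, the tyrosine sulfotransferases Tpst1 and Tpst2, which act on cholecystokinin, and peptidases that degrade the peptides. All 13 were measured, none passed 2-fold in either direction, and the median was 0.03. The largest differences were those of the convertase Furin, with 1611 against 2009 (0.24), and of Pam, with 1961 against 1771 (-0.22). The precursor genes Sst and Cort thus stood apart in size from the enzymes that process their products, whose differences ran from -0.22 to 0.24.

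Downstream of the somatostatin receptors, 1 of 14 signalling genes passed 2-fold upward and 0 downward, with a median of 0.09. It was Kcnj6, a subunit of the G protein-gated potassium channels that inhibitory receptors open (342 against 849, a difference of 1.24). The partner subunits Kcnj3 and Kcnj9 were at 0.42 and -0.59. Downstream of the cholecystokinin receptors, which act through phospholipase C, 2 of 12 genes passed 2-fold upward and 1 downward, with a median of 0.29. Plcb1, a phospholipase C prominent in cortex and hippocampus, was at 1.43 on both of its probes (881 against 2496 on the brighter). Plcb4, another isoform, was 2.10-fold lower (663 against 332). Prkca, protein kinase C alpha, was at 1.86 on its brightest probe and 0.96 on the other. Prkcb, counted as within 2-fold, was at 0.50 on its brightest probe and 1.16 on the other. The isoforms of phospholipase C thus lay on opposite sides of equality.

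In the growth hormone axis, on which hypothalamic somatostatin acts, none of 5 genes passed 2-fold. Ghr, the growth hormone receptor, was at 0.92 (83 against 165; other probes from 0.18 to 0.90). Ghrh, the releasing hormone that opposes somatostatin, was at -0.91 on its brightest probe (479 against 268) and -0.10 on the other. The list median of 0.37 became 0.00045 with normexp correction.

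Somatostatin, cortistatin and cholecystokinin are also products of GABA interneurons, so genes of these cells were listed. Of 27 measured on both arrays 12 passed 2-fold upward and 1 downward, with a median of 0.69. Among those higher were Gad1 and Gad2, the GABA synthesis enzymes (1.29 and 1.25). Npy, which many somatostatin interneurons co-express, was at 1.85 (3085 against 11753.6). Cnr1, a cannabinoid receptor that cholecystokinin interneurons express, was at 1.52. Transcription factors of interneuron development were also among those higher: Lhx6 (1.41), Dlx5 (1.52), Maf (1.33) and Npas1 (1.03). Crhbp, the CRH-binding protein, was at 2.22 and Pvalb, the parvalbumin gene, at 1.01. Of the 27 genes, 21 lay above 0 and 6 below, beside 7275 of all 14175 measured genes above 0. Vip, the gene of vasoactive intestinal peptide, was lower (-1.06). The others below 0 were Calb2 (-0.69), Htr3a (-0.58), Calb1 (-0.58), Nr2f2 (-0.48) and Adarb2 (-0.28). Calb2 was also counted among the thalamic markers. Elfn1 and Chodl cleared background on neither array, and Dlx2 and Dlx6 had no probe matched to them. The median was 0.42 without background correction.

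Marker genes of neighbouring regions also differed between the arrays, in unlike directions. Of 12 pallial excitatory neuron markers measured on both arrays, all 12 passed 2-fold upward after dexamethasone, from Camk2a (1.01) to Fezf2 (5.32), with a median of 4.39. Their summed level, in units of each array's 75th percentile, was 2.94 in the control against 63.9 after dexamethasone; the remaining marker, Tbr1, cleared background only after dexamethasone (at least 1.98-fold). Of 10 striatal markers 4 passed 2-fold upward and none downward, with a median of 0.68 and summed levels of 13.6 and 16.8. Among those past it, Bcl11b was highest at 4.32, with Penk at 1.34 and Drd2 at 1.03 (other probe 0.52). Within 2-fold lay Adora2a and Ppp1r1b (both 0.68), Drd1 (0.47), Rgs9 (0.46), Pde10a (-0.02) and Tac1 (-0.43). Of 10 thalamic markers 3 passed 2-fold downward (Gbx2 -1.19, Prkcd -1.03, Slitrk6 -1.02), with a list median of -0.89 and summed levels of 114 and 63.5. Tcf7l2, counted as within 2-fold, was at -0.91 on its brightest probe and -1.06 on the other. Cck, which cortical pyramidal cells and thalamic neurons also express, was at -0.27. The part of these regions in the values of Sst, Cort, Cck, Sstr3 and Cckbr was not tested.

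Of 10 markers of the paraventricular nucleus 9 were measured on both arrays. Avp and Oxt, the genes of vasopressin and oxytocin, were lower in the dexamethasone array (-1.91 and -1.38), Crh and the melanocortin receptor Mc4r were higher (1.39 and 1.20), and the list median was 0.16. Sim1, which specifies the nucleus, was dim on both arrays (14.1 and 12.0), and Otp cleared background only after dexamethasone (at least 1.34-fold). The pituitary hormone genes Gh1 and Prl cleared background on neither array, with Cga (2245 and 1702) and Tshb (546 and 499) detected on both. Of 3 blood genes measured on both arrays, Hbb and Alas2 were 2.83-fold and 2.74-fold higher. Ptprc was at -0.02 (124 against 130), with its other probe at -0.12. Cd3e, of T cells, cleared background only after dexamethasone (1.39 against 57.1, at least 9.25-fold). Th, of catecholamine neurons, was the 1 of 6 arcuate and ventromedial markers measured on both arrays past 2-fold (1.16); Fezf1 of that list cleared background only in the control (at least 4.44-fold lower after dexamethasone). On its brightest probe, none of the astrocyte, oligodendrocyte, microglia, endothelium or choroid plexus markers passed 2-fold (7, 7, 8, 6 and 5 measured). The astrocyte marker Gfap was at 0.73 on its brightest probe and 1.14 on the other.

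**Figure D4:**
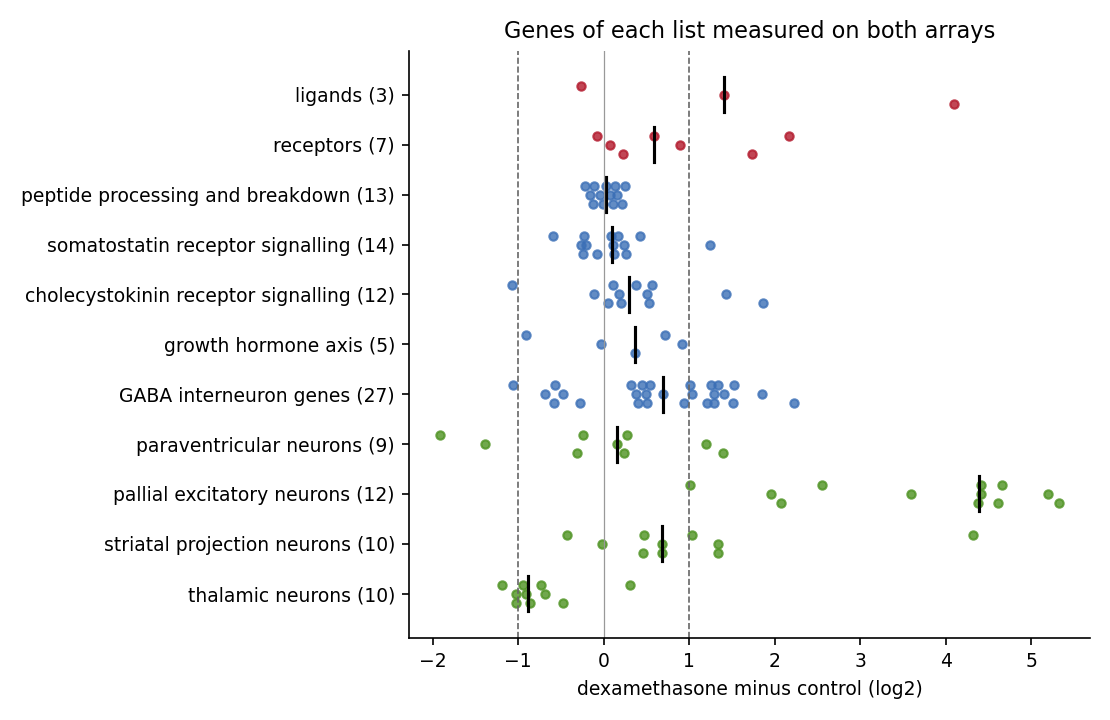
Difference between the arrays (dexamethasone minus control, log2) for the genes of each list measured on both arrays, with the number of genes in brackets; black bars are list medians and dashed lines mark 2-fold. The ligand and receptor genes (red) spread from -0.27 to 4.10, the pathway lists (blue) have medians from 0.03 to 0.69, and the pallial marker median (green) is 4.39.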

How the data were processed

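Total RNA was labelled with Cy3 and hybridised to 1-colour Agilent rat arrays, per the labels' protocols. The deposited scanner files hold intensity on a linear scale, background-subtracted by Feature Extraction 10.7.1.1 on build rn4, per the file headers; the submitters' processing notes name Agilent Feature Extraction 9.5.1.1. The deposited value table holds a normalized intensity, with a median of 149.9 in both columns; how the authors made it, its centring included, is not stated by the labels. Its between-array differences correlated with the scanner values at 0.996 over 30356 probes, which fixes its direction.

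Outlier spots (267 control, 249 dexamethasone) were left out, log2 signals were averaged per probe and each array's 75th percentile was subtracted. Probe names were updated through RefSeq (GRCr8) by accession (18006 probes), current symbol (2654) or older symbol (559); the other 9148 probes stayed out of gene counts. A gene took its brightest probe well above background on both arrays. Repeated-spot SDs come from 1314 probes with at least 5 usable spots. Normexp (offset 50), quantile and cyclic loess used limma 3.58.1 in R 4.3.3; the steps were tested on simulated data.

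A single array per group allowed no test. The members and gene lists were chosen with earlier results of these data known. The text names every member and, in the lists that bear on them, each gene past 2-fold or otherwise the 2 largest differences; further genes were named after their values were seen. Some listed genes are counted but not reported here by name. The 9 alternatives are 3 other scalings, 2 background treatments, outlier spots kept, no filter on dim probes, the mean over probes, and the authors' value table.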

Additional observations from a re-analysis of the deposited data

How the results depend on the processing

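The count of genes at least 2-fold higher (4) and lower (0) was the same under all 9 alternatives, and in each it was Sst, Cort, Sstr3 and Cckbr that passed. Sstr5 changed sign under both background alternatives (-0.15 and -0.04). Counts over all genes moved by more than 1.5 times in 3 settings: 284 higher and 130 lower with normexp, 280 and 133 without background correction, and 870 and 732 of 17571 genes with no filter on dim probes, against 478 and 338. The median difference of all genes stayed between -0.02 and 0.03. Of the differences of single genes and the list medians under these settings, 189 moved by no more than the repeated-spot SD and 54 by more. Dim signals limit what can be said of Cckar and Sstr5, and the single array per group limits every comparison.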
